A study of Mus musculus with 10 samples.

Results

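The transcripts described here are those of 39 genes of the DNA replication machinery, chosen by name from the 38803 gene symbols listed for each library. They encode the proteins that license replication origins, unwind DNA, prime and copy it, join the new strands and package them into chromatin. RNA was taken from E12 (embryonic day 12) mouse dorsal telencephalon, the future cortex. All 39 had at least 1 FPKM (fragments per kilobase of transcript, scaled to the total of the library) in at least 5 libraries, the level needed for testing. The 5 mutant libraries came from embryos labelled Rnu11Flx/Flx::Emx1-Cre+/-, with both copies of Rnu11 floxed, and the 5 control libraries from embryos labelled Rnu11WT/Flx::Emx1-cre+/-, with 1 floxed and 1 wild-type copy. The strain of every embryo is given as C57/Bl6 - 129 SvJ. Both groups thus carried Emx1-Cre and a floxed copy, so the controls may have lost a copy of Rnu11 in the same cells, and a group with Rnu11 intact is not part of the comparison. Emx1-Cre acts in the progenitors of the dorsal telencephalon and their progeny and spares cells of other origin in the tissue, such as vessels, blood and microglia. No label ties each library to an embryo of its own, so p-values measure the spread between these libraries.

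Rnu11 encodes the U11 small nuclear RNA, through which the minor spliceosome finds the start of the few introns it removes. At this age the cortical wall consists largely of dividing radial glia, and their cell cycle includes an S phase in which the replication genes are in demand. In each cycle, the origin recognition complex with Cdc6 and Cdt1 loads the MCM helicase ring onto DNA. Cyclin E and its kinase help to start the ring together with Cdc45 and the GINS complex, and polymerases then copy both strands behind it. Transcription of many of these genes is driven by E2F factors as cells enter S phase. In bulk tissue, fewer cycling cells and less RNA per cycling cell cannot be told apart.

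The E2F site was looked for in the promoters of the replication genes, because a shared site is what these genes are known for. RefSeq promoter windows (GRCm38.p6, 250 bases before to 50 bases after the start) were at hand for 31 of the 39 genes. The 4 spellings TTTGGCGC, TTTCGCGC, TTTCCCGC and TTTGCCGC were searched on both strands, and matches may overlap each other. At least 1 match was present for 13 of the 31 genes (41.9%), beside the 5.05% of 8950 tested genes with a window and the 2.6% of all 27025 genes with one. The CCAAT box, a common promoter element searched as CCAAT on both strands, was present for 21 of 31 (67.7%), compared with 43.8% of tested genes. No test was made of these shares, and a match describes letters, not binding. Pole, Gins2, Gins1, Prim2, Ccne2, Rfc2, Gins4 and Mcm4 had no window. The 160 bases before the RefSeq start are shown for 3 genes with matches, from the helicase ring and the priming polymerase, and for Rfc5, the gene with the largest difference between genotypes, in which no match was found. Capitals mark the E2F matches, read on either strand. The stretches lie at chr8:75109349-75109508 (Mcm5, plus strand), chr1:128359706-128359865 (Mcm6, minus strand), chrX:93632156-93632315 (Pola1, minus strand) and chr5:117389024-117389183 (Rfc5, minus strand).
Mcm5: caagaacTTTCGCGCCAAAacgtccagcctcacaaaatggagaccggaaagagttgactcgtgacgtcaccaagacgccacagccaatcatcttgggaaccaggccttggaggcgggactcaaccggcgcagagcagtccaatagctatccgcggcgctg
Mcm6: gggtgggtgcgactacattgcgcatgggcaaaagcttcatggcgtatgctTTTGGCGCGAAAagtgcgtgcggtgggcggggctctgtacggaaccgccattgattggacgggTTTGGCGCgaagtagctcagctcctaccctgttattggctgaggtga
Pola1: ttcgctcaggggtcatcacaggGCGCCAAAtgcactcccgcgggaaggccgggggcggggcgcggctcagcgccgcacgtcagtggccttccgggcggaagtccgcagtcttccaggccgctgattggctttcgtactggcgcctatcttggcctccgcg
Rfc5: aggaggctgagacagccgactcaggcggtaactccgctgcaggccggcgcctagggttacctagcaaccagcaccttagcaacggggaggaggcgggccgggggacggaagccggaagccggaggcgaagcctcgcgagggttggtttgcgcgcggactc
The Mcm5 stretch held 2 overlapping matches and the Mcm6 stretch 3, of which 2 overlapped, while Pola1 had 1.

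The deposited lists give FPKM only. A rough depth, read from the smallest steps between low values of genes with 1 transcript, ran from 9640000 to 21400000 fragments per library, and at 2000 bases of transcript each fragment then adds 0.0234 to 0.0519 FPKM. Rnu11 itself averaged 892.3 ± 457.6 FPKM in mutants and 2283 ± 352.5 FPKM in controls (SD, n = 5 each), or 39.1% of control. By an exact permutation test (two-sided) p was 0.00794, the lowest possible with 5 libraries a group. Libraries of both genotypes also formed a pair of sets, split at the largest gap in the level of Rnu12, the U12 small nuclear RNA. Mutants 4 and 5 and control 5 formed the smaller set, with 487 to 688 FPKM of Rnu12, and the other 7 libraries the larger set, with 5.91 to 33.8 FPKM. The short RNAs Rny1 and Rpph1 did not overlap between the sets either. Rny1 had 137459 to 257420 FPKM in the smaller set and 40158 to 93172 FPKM in the larger. Rpph1 had 27368 to 40837 FPKM in the smaller set and 89243 to 138947 FPKM in the larger. Rnu11 had 712.1, 472.8, 511.2, 1344 and 1421 FPKM in mutants 1 to 5, against 2386, 2031, 2817, 1913 and 2266 FPKM in controls 1 to 5. Mutants 4 and 5 thus held more Rnu11 than mutants 1 to 3. Among mutants, the library set and the remaining Rnu11 cannot be told apart. What the sets stand for is not given in the labels, and the replication genes are described within the larger set too.

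None of the 39 replication genes differed between mutants and controls past the threshold (limma on log2(FPKM + 1), adjusted over 13522 tested genes, threshold 0.05), where 0.155% of all tested genes were called, 0.0887% higher and 0.0666% lower in mutants. The smallest adjusted p of a replication gene was 0.31, for Rfc5. Rnu11, the targeted gene, did not pass in this fit either (log2 difference -1.50, limma, adjusted p = 0.118). It passed when the library set was a term (log2 difference -1.66, limma, adjusted p = 0.00853). At an unadjusted p under 0.05 there was 1 of 39, Rfc5, which was lower in mutants, compared with 8.76% of tested genes in either direction and 1.07% lower. Mutant and control values overlapped for each of the 39, where 1.9% of tested genes showed no overlap, 1.52% with higher and 0.377% with lower mutant values. The data also bound the differences. On the log2(FPKM + 1) scale, the 95% interval, taken 1 gene at a time, lay within 1.5-fold in both directions for 35 of 39 genes. Of tested genes 70.5% did so, and all 39 intervals lay within 2-fold. The 4 genes whose interval went past 1.5-fold were Rfc5 downwards and Cdc6, Lig1 and Prim1 upwards. Intervals had a median half-width of 0.31 on the log2 scale.

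**Figure D1:**
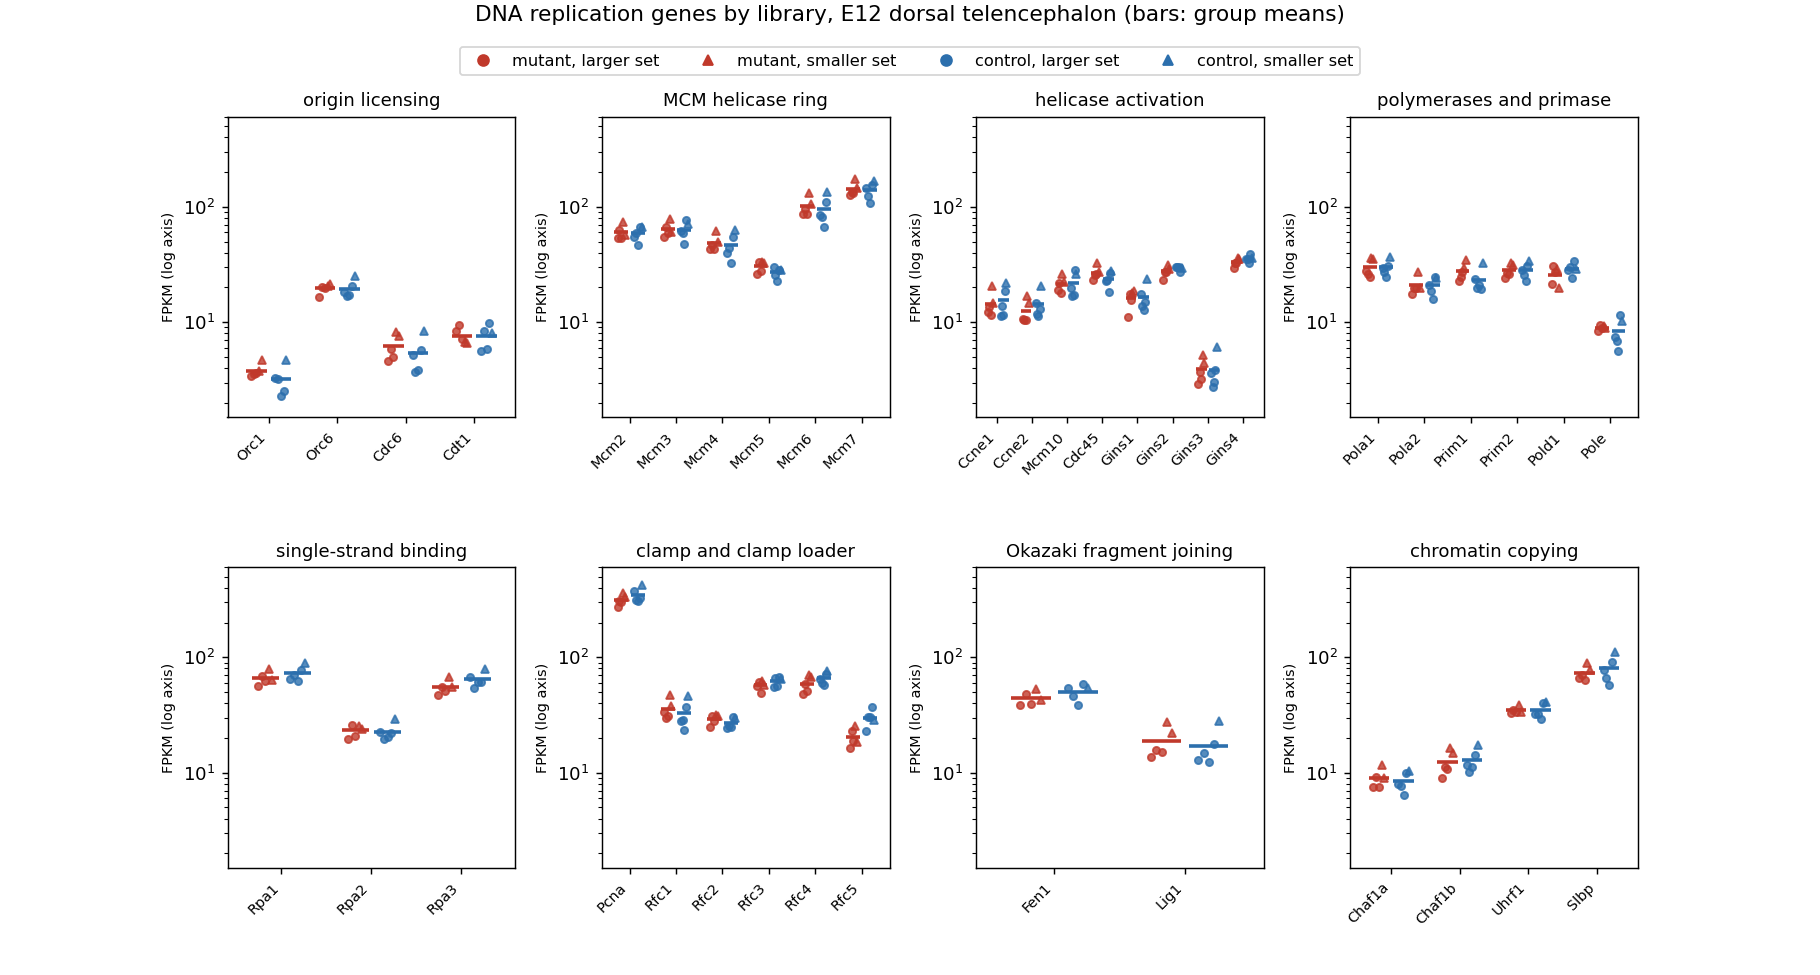
FPKM on a log axis for each of the 39 genes in 8 panels by role, mutants in red to the left and controls in blue to the right, with bars at the group means. Triangles mark mutants 4 and 5 and control 5, which often lie at the top of their group, and the groups overlap for each gene.

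Levels spanned a wide range within the machinery. Averaged over the 10 libraries, Pcna, the sliding clamp, was the most abundant at 330.7 FPKM, followed by Mcm7 at 140.9 and Mcm6 at 98.4 FPKM. The scarcest transcripts were Orc1 at 3.52, Gins3 at 3.88, Cdc6 at 5.82 and Cdt1 at 7.62 FPKM, so 3 of the 4 scarcest belonged to origin licensing. Subunits of 1 complex were unequal in transcript level. The 6 ring subunits ran from 28.9 FPKM for Mcm5 to 140.9 FPKM for Mcm7, the 4 GINS subunits from 3.88 FPKM for Gins3 to 34.4 FPKM for Gins4, and the 5 clamp loader subunits from 25.2 FPKM for Rfc5 to 62.5 FPKM for Rfc4. Libraries of 1 genotype agreed most closely for Gins4 and Gins2, with a within-group SD of 0.10 and 0.11 on the log2 scale, and least for Lig1 and Cdc6, with 0.43 and 0.36.

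The 4 origin licensing genes had log2 differences between 0.02 and 0.21. Orc1 (chromosome 4, 108579423 to 108614833 in GRCm38), the largest subunit of the origin recognition complex, had 3.4, 3.53, 3.61, 3.81 and 4.66 FPKM in mutants 1 to 5, against 3.31, 3.25, 2.29, 2.54 and 4.74 FPKM in controls 1 to 5. All mutants lay above controls 1 to 4 and control 5 lay above all mutants. Its log2 difference was 0.21 (95% interval -0.13 to 0.54, limma, adjusted p = 0.708). Cdc6 (chromosome 11, 98907801 to 98923940), the ATPase that recruits the helicase to origins, had 4.59, 5.81, 5, 8.24 and 7.63 FPKM in mutants 1 to 5, against 5.17, 3.71, 3.89, 5.76 and 8.41 FPKM in controls 1 to 5. The highest values were those of mutants 4 and 5 and control 5, in both groups the libraries of the smaller set, and the difference was 0.20 (-0.24 to 0.65, adjusted p = 0.788). Orc6 and Cdt1, which loads the ring together with Cdc6, lay at differences of 0.02 and 0.03.

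The 6 subunits of the MCM ring had log2 differences from 0.02 for Mcm3 to 0.18 for Mcm5. Mcm5 (chromosome 8, 75109569 to 75128439), a subunit at the gate through which the ring opens, had 26.1, 33.2, 28, 33.5 and 32.9 FPKM in mutants 1 to 5, against 30.1, 25.8, 22.9, 28.4 and 28.1 FPKM in controls 1 to 5. The highest 3 values were mutant ones and the lowest 2 control ones, with overlap between, and the difference was 0.18 (95% interval -0.07 to 0.42, limma, adjusted p = 0.664). Mcm6 (chromosome 1, 128331590 to 128359664) had 87.4, 95.6, 86.9, 132.2 and 105.1 FPKM in mutants 1 to 5, against 85.6, 81, 66.2, 109.9 and 134.2 FPKM in controls 1 to 5. Mutant 4 and control 5 stood highest, and the difference was 0.11 (-0.29 to 0.52, adjusted p = 0.869). Mcm2, Mcm4 and Mcm7 lay at 0.04, 0.07 and 0.03. All tested genes together had a median of 0.11, above Mcm2, Mcm3, Mcm4 and Mcm7. After rescaling the libraries by median ratios, 5 of the 6 lay below 0.

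Of the 8 genes that act in starting the helicase, 3 had log2 differences above 0 and 5 below. Cdc45 (chromosome 16, 18780447 to 18811987), which joins MCM and GINS to form the active helicase, had 23.1, 25.6, 26.3, 32.3 and 27.2 FPKM in mutants 1 to 5, against 22.6, 23.2, 18.4, 26.7 and 27.9 FPKM in controls 1 to 5. The difference was 0.18 (95% interval -0.10 to 0.46, limma, adjusted p = 0.702). Gins4 (chromosome 8, 23226616 to 23237659), a GINS subunit, had 29.4, 32.9, 32.3, 36.2 and 35.4 FPKM in mutants 1 to 5, against 35, 35.3, 32.5, 38.9 and 36.2 FPKM in controls 1 to 5. Mutants 1 and 3 lay below all controls, mutant 2 above 1 control only, and the difference was -0.10 (-0.30 to 0.11, adjusted p = 0.782). The other GINS genes lay at -0.02 for Gins1, -0.09 for Gins2 and 0.02 for Gins3, and Mcm10, which helps the helicase to start, at 0.01. Ccne1 and Ccne2, the E cyclins that drive entry into S phase with their kinase, lay at -0.07 and -0.17 with intervals of -0.50 to 0.36 and -0.56 to 0.23.

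Among the 6 polymerase and primase genes, log2 differences ran from -0.19 to 0.25. Prim1 (chromosome 10, 128015168 to 128030037), the catalytic subunit of primase, had 22.9, 24.6, 27.2, 29.7 and 34.9 FPKM in mutants 1 to 5, against 23.7, 19.8, 21.2, 19.5 and 32.5 FPKM in controls 1 to 5. Control 5 lay among the mutants and the other controls lay at or below 23.7 FPKM, and the difference of 0.25 (95% interval -0.08 to 0.59, limma, adjusted p = 0.652) was the highest of the 39 genes. Pold1 (chromosome 7, 44532746 to 44548849), the catalytic subunit of polymerase delta, had 21.3, 30.6, 27.2, 28.9 and 19.8 FPKM in mutants 1 to 5, against 28.2, 29.9, 24.2, 33.8 and 29.1 FPKM in controls 1 to 5. Mutants 1 and 5 were the lowest libraries, the other 3 mutants lay within the control range, and the difference was -0.19 (-0.49 to 0.11, adjusted p = 0.704). Pola1, Pola2 and Prim2, the partners of Prim1 in the complex that makes primers, lay at 0.01, 0.00 and 0.00, and Pole, the catalytic subunit of polymerase epsilon, at 0.13.

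The 3 subunits of RPA, which coats single-stranded DNA, lay at log2 differences of -0.14 for Rpa1, 0.04 for Rpa2 and -0.22 for Rpa3. Rpa3 (chromosome 6, 8255936 to 8259173), the smallest subunit, had 47, 55.5, 50.5, 66.9 and 55.4 FPKM in mutants 1 to 5, against 67.8, 53.9, 60.7, 60.6 and 79 FPKM in controls 1 to 5. Only mutants 1 and 3 lay below all controls, and the 95% interval was -0.50 to 0.06 (limma, adjusted p = 0.633). Rpa1 (chromosome 11, 75298166 to 75348324), the largest subunit, had 56.7, 68.8, 62.3, 79.6 and 63.1 FPKM in mutants 1 to 5, against 64.6, 70.1, 62.6, 78.3 and 89.7 FPKM in controls 1 to 5, with an interval of -0.42 to 0.14 (adjusted p = 0.766).

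The largest difference was in a subunit of replication factor C, the complex that loads the Pcna clamp. Rfc5 (chromosome 5, 117378103 to 117389047, minus strand) had 16.3, 23.1, 18.8, 25.4 and 18.6 FPKM in mutants 1 to 5, against 23, 30.2, 30.6, 37 and 28.7 FPKM in controls 1 to 5. Control 1 lay below mutants 2 and 4, and the other 4 controls lay above every mutant. The means were 20.4 ± 3.71 FPKM in mutants and 29.9 ± 4.99 FPKM in controls (SD, n = 5 each), 68.3% of control. The log2 difference was -0.53 (SE 0.15, 95% interval -0.85 to -0.21), with a limma p of 0.00344 before adjustment and 0.31 after it. It was -0.61 in the larger set and -0.38 in the smaller, and a fit that included the set gave -0.55 (adjusted p = 0.143). After median ratio scaling it was -0.65 (adjusted p = 0.151), and mutants, at 15.2 to 24.5 scaled FPKM, no longer overlapped controls, at 25.3 to 35.5, where 1.17% of tested genes were lower without overlap. Exons of Rfc5 overlap those of Wsb2 on the opposite strand. Wsb2, looked up for that reason after the values were seen, lay at 13.9, 15.5, 15.9, 12.7 and 13.9 FPKM in mutants 1 to 5, against 8.66, 9.21, 8.42, 14.2 and 10.5 FPKM in controls 1 to 5 (log2 difference 0.48, adjusted p = 0.346). How strand was handled in counting is unknown here, and the part of Wsb2 in the values of Rfc5 was not tested.

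The other clamp loader subunits had smaller differences. Rfc4 (chromosome 16, 23113943 to 23127737) had 47.6, 58.1, 51.2, 69.9 and 68.1 FPKM in mutants 1 to 5, against 65.4, 60.4, 57.6, 70.9 and 75.5 FPKM in controls 1 to 5, with a log2 difference of -0.17 (95% interval -0.45 to 0.11, limma, adjusted p = 0.724). Rfc1, Rfc2 and Rfc3 lay at 0.15, 0.11 and -0.11. No test of Rfc5 against the other subunits was made. Pcna, the clamp itself, averaged 313.5 ± 32 FPKM in mutants and 348 ± 48.7 FPKM in controls (SD, n = 5 each), with a difference of -0.15 (-0.43 to 0.14). Some of its reads may be shared with the pseudogenes Pcna-ps1 and Pcna-ps2.

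Fen1 and Lig1, the nuclease that trims Okazaki fragments and the ligase that seals them, lay on opposite sides of 0. Fen1 (chromosome 19, 10199132 to 10204169) had 38.5, 48.3, 39.2, 53.5 and 42.6 FPKM in mutants 1 to 5, against 54.2, 45.8, 38.5, 59 and 54 FPKM in controls 1 to 5, a log2 difference of -0.17 (95% interval -0.47 to 0.13, limma, adjusted p = 0.731). Lig1 (chromosome 7, 13277283 to 13311433) had 13.6, 15.6, 15.2, 27.6 and 22 FPKM in mutants 1 to 5, against 12.8, 14.9, 12.3, 17.8 and 27.9 FPKM in controls 1 to 5. The 3 libraries of the smaller set stood above the other 7 regardless of genotype, and the genotype difference was 0.14 (-0.38 to 0.66, adjusted p = 0.875).

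The 4 genes that act in copying chromatin had log2 differences between -0.11 and 0.07. Slbp (chromosome 5, 33634952 to 33652574) encodes the protein that binds the stem-loop of replication-dependent histone mRNAs. It had 65.8, 70.6, 62.9, 88.7 and 77.4 FPKM in mutants 1 to 5, against 77.3, 66.4, 57.8, 91.8 and 110.3 FPKM in controls 1 to 5 (difference -0.11, 95% interval -0.48 to 0.25, limma, adjusted p = 0.855). Chaf1a (chromosome 17, 56040439 to 56072289), a subunit of the chromatin assembly factor that deposits histones behind the fork, had 7.47, 9.11, 7.5, 11.6 and 8.98 FPKM in mutants 1 to 5, against 7.92, 7.72, 6.44, 9.86 and 10.3 FPKM in controls 1 to 5 (difference 0.07). Its partner Chaf1b lay at -0.05, and Uhrf1, which recruits the maintenance DNA methyltransferase to newly copied DNA, at 0.00.

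**Figure D2:**
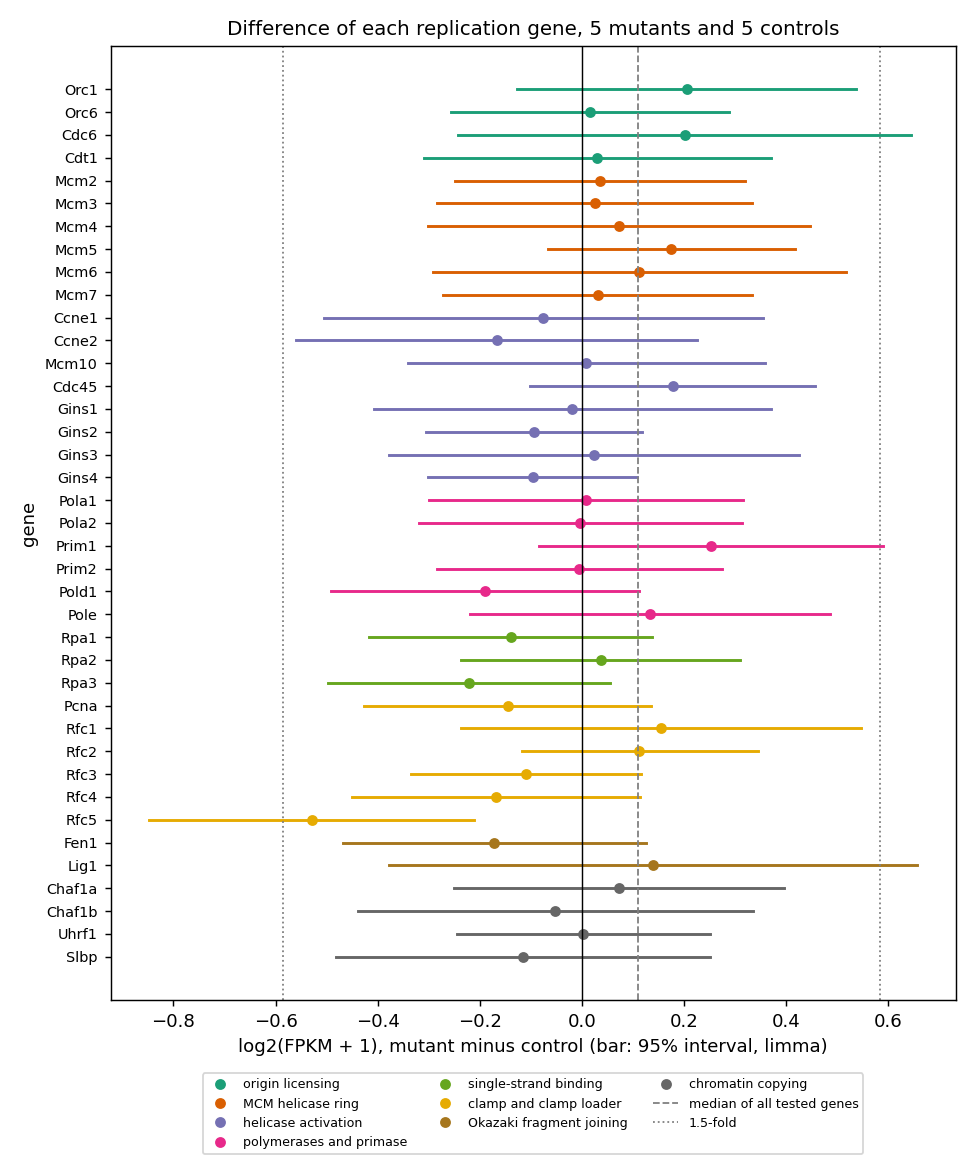
Log2 difference in log2(FPKM + 1), mutant minus control, with 95% intervals from limma for the 39 genes ordered by role. The interval includes 0 for 38 genes, Rfc5 being the exception, and the dashed line at 0.11 is the median of all tested genes.

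The direction of the whole group depended on how the libraries were scaled. On the deposited FPKM 22 of the 39 genes lay above 0 and 17 below, with a median log2 difference of 0.01, while 24.3% of all tested genes lay below 0. Set against the median over all tested genes, 0.11, that of the replication genes was -0.10 relative to it, and 29 of 39 lay below it, where by construction 50% of tested genes do. Median ratio scaling, which divides each library by a factor of its own, left the median of all tested genes at 0.00 and put 31 of 39 replication genes below 0 (median -0.11), against 49.6% of all tested genes. Quantile normalization put 29 below 0 (median -0.09). None of the 39 passed the threshold under either scaling. After median ratio scaling 36 of 39 intervals lay within 1.5-fold on the log2(FPKM + 1) scale, against 77% of tested genes. Since the list was chosen with earlier results known, these counts carry no test.

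The mean level over the 39 genes, on the log2(FPKM + 1) scale, was compared library by library. As deposited it was 4.63, 4.83, 4.71, 5.08 and 4.9 in mutants 1 to 5, against 4.78, 4.72, 4.57, 4.97 and 5.14 in controls 1 to 5. Values of the genotypes were interleaved. After median ratio scaling it was 4.54, 4.75, 4.65, 5.03 and 4.87 in mutants 1 to 5, against 4.91, 4.85, 4.78, 4.9 and 5.02 in controls 1 to 5. Mutants 1 to 3 then lay below all 5 controls, while mutant 4 lay above all of them and mutant 5 within their range.

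**Figure D3:**
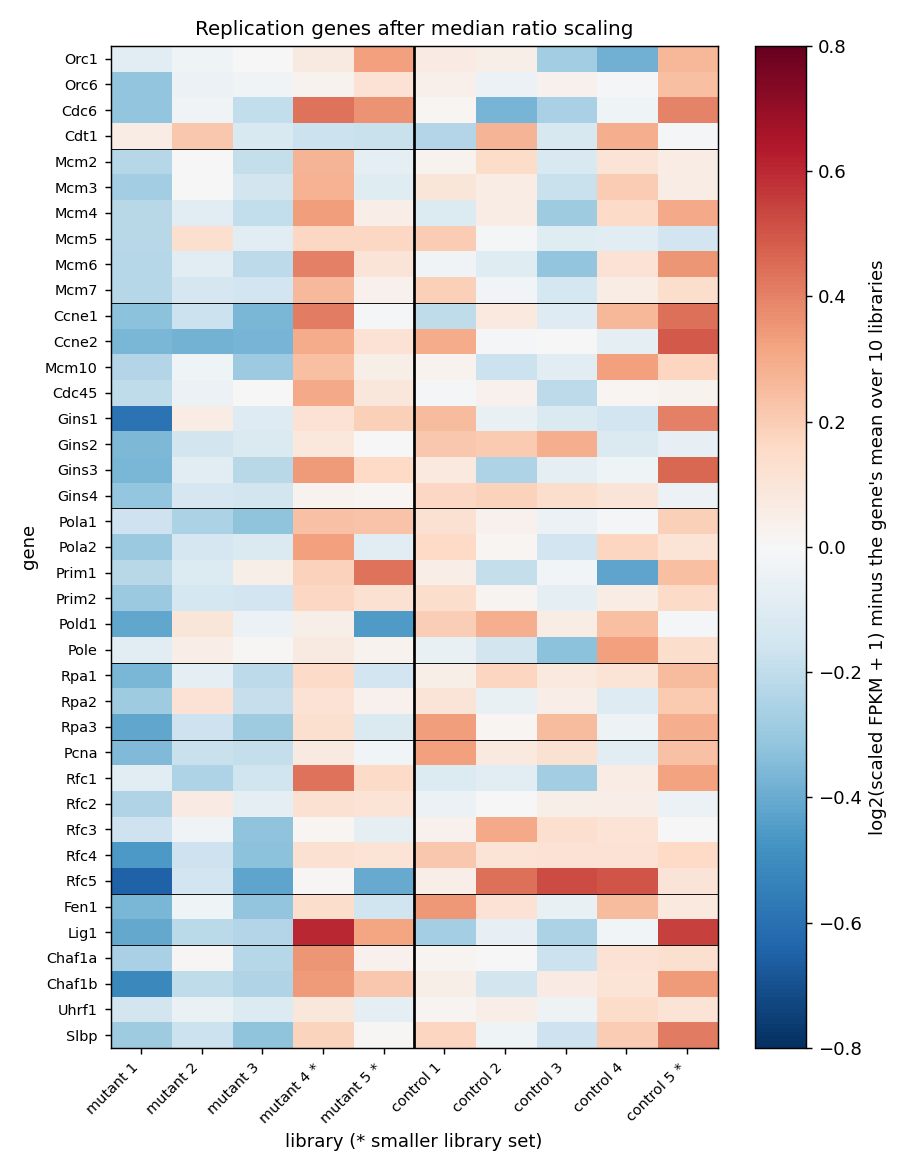
Log2(FPKM + 1) after median ratio scaling, relative to each gene's mean over the 10 libraries, for the 39 genes (rows, by role) and 10 libraries (columns, mutants left of controls, stars for the smaller set). Mutants 1 to 3 are blue in most rows, and mutant 4 and control 5 are red in most rows.

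Within the larger set, mutants 1 to 3 and controls 1 to 4 did not overlap for some replication genes, most of them lower in mutants, and their number depended on the scaling. On deposited values 22 of 39 lay below 0, with a median of -0.01 where all tested genes had 0.16, and 35 lay below the median of all tested genes. Ccne2, Gins2 and Pcna were lower in each mutant than in any control, 3 of 39 where 1.44% of tested genes were, and Orc1 was higher, 1 of 39 where 16.7% were. None of the 39 passed the threshold by limma in that set, where 0.747% of tested genes did. With median ratio scaling in that set, chosen after the data were seen, 35 of 39 lay below 0 (median -0.19, all tested genes 0.01). Below the median of all tested genes lay 36. Overlap was counted with the factors fitted over all 10 libraries. Of the 39, 13 were lower without overlap on that scaling, against 8.34% of tested genes, and 0 were higher, against 6.69%. These 13 were Ccne2, Gins4, Pola1, Prim2, Rpa1, Rpa3, Pcna, Rfc3, Rfc4, Rfc5, Chaf1b, Uhrf1 and Slbp, and none was an MCM or origin licensing gene. With scaling in the larger set, none of the 39 passed the threshold by limma, where 0.651% of tested genes did. The smallest adjusted p was 0.0748, for Rfc5 (log2 difference -0.78). In the smaller set, with 2 mutants and 1 control and no test, 35 of 39 lay below 0 (median -0.15, all tested genes -0.08), but 26 below the median of all tested genes. By construction 50% of tested genes lie below their own median.

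More replication genes passed the threshold between the library sets than between genotypes. With genotype in the model, 14 of 39 were higher in the smaller set (limma, adjusted p under 0.05), where 13.3% of tested genes were higher, and 0 of 39 were lower, where 7.48% were. The median log2 difference of the 39 was 0.30 against 0.06 over all tested genes, and 37 of 39 lay above 0. Lig1 had 22 to 27.9 FPKM in the smaller set and 12.3 to 17.8 FPKM in the larger (log2 difference 0.79, 95% interval 0.51 to 1.07, adjusted p = 0.00179). Cdc6 had 7.63 to 8.41 FPKM in the smaller set and 3.71 to 5.81 FPKM in the larger (0.63, 0.33 to 0.93, adjusted p = 0.00819). Ccne2, Chaf1b and Gins3 differed by 0.59, 0.55 and 0.56 (adjusted p = 0.00319, 0.00789 and 0.0114). Pola1, whose promoter is shown above, had 35.5 to 37 FPKM in the smaller set and 24.6 to 30.8 FPKM in the larger (0.42, adjusted p = 0.00973), and Mcm6 differed by 0.50 (adjusted p = 0.027). The other called genes were Ccne1, Gins1, Prim1, Prim2, Rfc1, Rfc4 and Slbp. Cdt1 and Pold1 were the 2 genes below 0, at -0.10 and -0.07. The sets were split on the data, so they are groups of libraries and not groups of the study.

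Of 40 further genes of the machinery, such as the remaining origin recognition subunits, polymerase subunits and fork protection factors, all 40 were tested. Past the threshold were 0, where 0.155% of tested genes were, and 0 had an unadjusted p under 0.05, against 8.76% of tested genes. The median log2 difference of the 40 was 0.04 (-0.07 relative to all tested genes), and 31 of 40 lay below the median of all tested genes. Rnaseh2a, a subunit of the ribonuclease that removes ribonucleotides from DNA, averaged 55.5 ± 8.97 FPKM in mutants and 64 ± 5.57 FPKM in controls (SD, n = 5 each; difference -0.21, limma, adjusted p = 0.627). Dscc1, part of an alternative clamp loader, averaged 9.41 ± 1.57 FPKM in mutants and 11.4 ± 1.96 FPKM in controls (SD, n = 5 each; difference -0.25, limma, adjusted p = 0.623). Of 22 genes that control entry into S phase 0 passed (median 0.09), and 4 had an unadjusted p under 0.05, where 8.76% of tested genes did. Cdkn1a, which encodes the p21 inhibitor of the cyclin E kinase and is a target of p53, was the one without overlap, where 1.52% of tested genes were higher without overlap. It had 6.6, 8.74, 4.02, 2.94 and 3.82 FPKM in mutants 1 to 5, against 2.47, 2.29, 2.57, 2.27 and 2.01 FPKM in controls 1 to 5. Its difference was 0.83 (95% interval 0.36 to 1.29, limma, adjusted p = 0.29), and a fit that included the library set gave 0.93 (adjusted p = 0.0373). In the larger set alone it was 1.08 (limma, adjusted p = 0.0467), and 0.93 with median ratio scaling there (adjusted p = 0.109). In the fit that included the library set E2f5, a member of the E2F family, was lower in mutants (log2 difference -0.55, limma, adjusted p = 0.049, against -0.41 and 0.588 without the set). None of the 39 replication genes passed in it, where 0.547% of tested genes did.

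Genes of later cell cycle phases and of the cell types in the tissue were set beside these values. Of 20 G2 and M phase genes 0 passed and 1 had an unadjusted p under 0.05, against 8.76% of tested genes. The median of the 20 was 0.12 (0.02 relative to all tested genes). As deposited, their mean level was 5.36, 5.38, 5.4, 5.8 and 5.76 in mutants 1 to 5, against 5.36, 5.24, 5.11, 5.46 and 5.89 in controls 1 to 5. It was highest in the 3 libraries of the smaller set. Of 15 markers of radial glia 0 passed (median 0.12), with 874 to 920 summed FPKM in mutants and 726 to 920 in controls, and of 10 intermediate progenitor markers 0 passed (median 0.19), with 242 to 254 and 214 to 264 summed FPKM in mutants and controls. At an unadjusted p under 0.05 there were 3 of the 15 and 3 of the 10, against 8.76% of tested genes in either direction. Ddah1 and Mfap4 were the genes of these lists without overlap, with log2 differences of 0.47 and 0.46 (limma, adjusted p = 0.333 and 0.225). Of all tested genes, 1.52% were likewise higher in mutants without overlap.

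**Figure D4:**
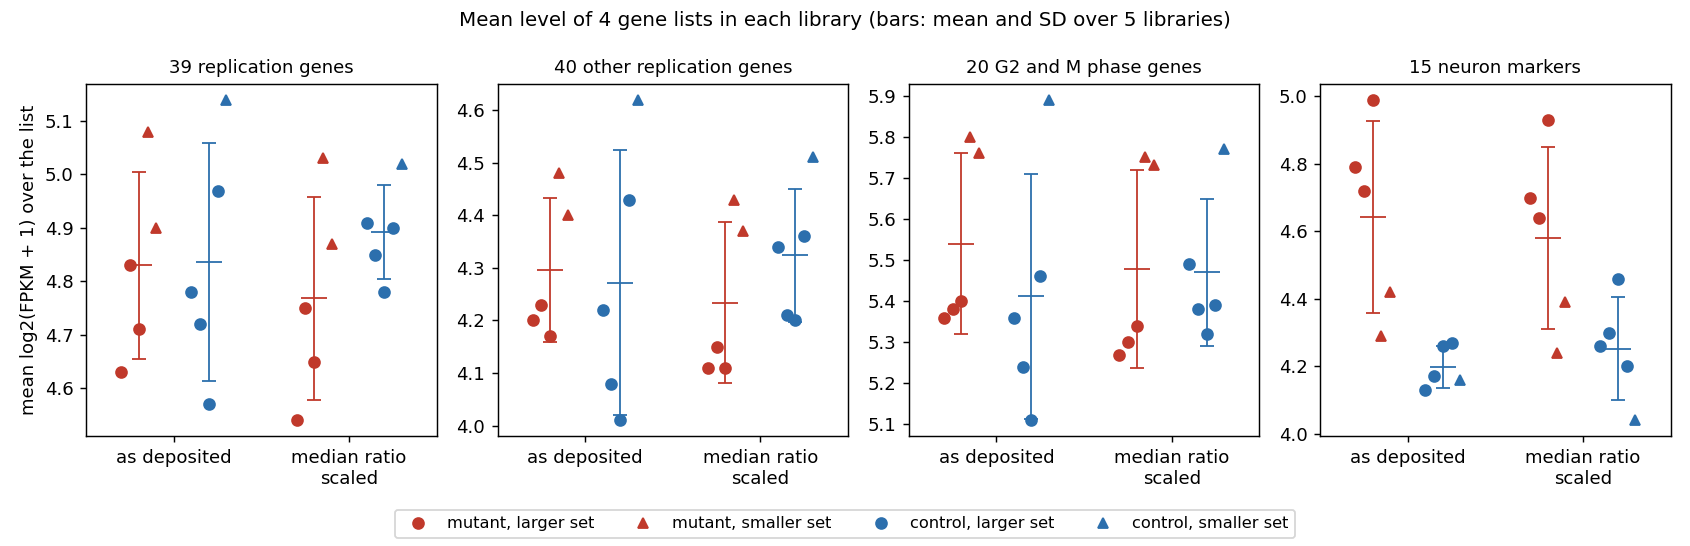
Mean log2(FPKM + 1) over 4 gene lists in each library, as deposited and after median ratio scaling, mutants in red left of controls in blue, with mean and SD over 5 libraries. Triangles mark the smaller set. Its 3 libraries are the highest for the G2 and M phase list, and mutants 1 to 3 are the highest for the neuron markers.

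Markers of early excitatory neurons, cells that have left the cycle, were at their highest in mutants 1 to 3, those lowest in scaled replication level. On deposited values control 3 was the lowest in replication level, and mutant 2 lay above controls 1 to 3. Of 15 markers 0 passed over all genes, 7 had an unadjusted p under 0.05, where 8.76% of tested genes did, and all 15 lay above the median of all tested genes (median 0.43). A fit that included the library set called 2 of the 15, Snap25 and Rbfox3, both higher in mutants (log2 differences 0.72 and 0.74, limma, adjusted p = 0.0231 and 0.0391). As deposited, the mean level of the 15 markers was 4.79, 4.72, 4.99, 4.29 and 4.42 in mutants 1 to 5, against 4.13, 4.17, 4.26, 4.27 and 4.16 in controls 1 to 5. After median ratio scaling it was 4.7, 4.64, 4.93, 4.24 and 4.39 in mutants 1 to 5, against 4.26, 4.3, 4.46, 4.2 and 4.04 in controls 1 to 5. Their summed level as deposited was 460 to 688 FPKM in mutants and 378 to 534 FPKM in controls. Microglia and macrophage markers had 0 of 7 called (median 0.56) and 3 with an unadjusted p under 0.05, against 8.76% of tested genes. The fit with the library set called C1qa, higher in mutants (log2 difference 1.25, limma, adjusted p = 0.0089). These 7 markers had 25.9 to 79.2 summed FPKM in mutants and 17.6 to 39.6 in controls, and mutants 1 to 3 were highest. Summed endothelial markers lay at 29.6 to 49 FPKM in mutants and 24.1 to 40.7 in controls, mesenchymal and meningeal ones at 73.6 to 177 and 59.7 to 144.7, and Cajal-Retzius ones at 39.4 to 67.7 and 35.6 to 84. Erythroid markers summed to 4381 to 8520 FPKM in mutants and 3338 to 8133 FPKM in controls. Markers of the neighbouring ventral telencephalon summed to 9.36 to 27.2 FPKM in mutants and 6.99 to 73.7 FPKM in controls, highest in control 4, and 2 of 10 were tested. Of the endothelial, mesenchymal, Cajal-Retzius, erythroid and ventral markers, 0 passed, with or without the set in the fit. An unadjusted p under 0.05 was found for 0 of them, against 8.76% of tested genes. The share of these cell types in the level of the replication genes was not tested.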

How the data were processed

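RNA-seq of 5 mutant and 5 control libraries of E12 dorsal telencephalon was analysed from 1 list of FPKM per gene and library, as deposited by the authors. Per the submitters' processing notes, HISAT2 and the GRCm38 (mm10) build were used. The program that computed FPKM, its annotation and its use of strand are unknown: not given in the sources used here. No counts were given, so depth is an estimate and no count model was fitted.

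The 13522 genes that reached 1 FPKM in 5 or more libraries entered limma 3.58.1 in R 4.3.3 on log2(FPKM + 1) with intensity trend and robust moderation, genotype as the single term and Benjamini-Hochberg adjustment over all tested genes (threshold 0.05). Fold changes on this scale understate those of low genes. The 95% intervals are per gene and unadjusted. The scripts were tested on simulated data. Tables and figures were made with Python 3.11.15, pandas 2.3.3, scipy 1.17.1 and matplotlib 3.10.9.

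The 39 genes and the other lists were chosen with earlier results of these data known, so lists are described by counts and medians beside those of all tested genes. Named with the values of every library were genes past the threshold, with or without the library set as a term, genes without overlap between genotypes, and the 2 genes of each role with the smallest p. Of other lists, genes past the threshold or without overlap were named, and the 2 further replication genes with the smallest p. Wsb2, the genes of other lists called with the library set as a term, the genes called between library sets and those named within the larger set came later, after values were seen. Alternatives were another pseudocount, other filters, median ratio and quantile scaling, the library set as a term, each set alone, the replicate number as a block, limma without trend or robust moderation, and each library left out. Gene coordinates are those of GENCODE M21 on GRCm38, and promoter sequences those of RefSeq on GRCm38.p6. For 14 of the 39 genes an exon is overlapped by a gene of the opposite strand.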

Additional observations from a re-analysis of the deposited data

Results flagged for a closer look

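Relative to the range of its group, a single library stood apart from the other 4 for 3 of the 39 replication genes. Pola2, the second subunit of polymerase alpha, had 27.1 FPKM in mutant 4 and 17.7 to 19.8 FPKM in the other mutants. Gins2 had 27.5 FPKM in control 4 and 29.6 to 30.2 FPKM in the other controls, while mutants ran from 23.4 to 31.3 FPKM. Rpa2 had 28.9 FPKM in control 5 and 19.7 to 22.3 FPKM in the other controls. The gap divided by the range was above Dixon's critical value of 0.71 in these 3 of 78 groups examined, and chance alone passes it in about 1 in 20 groups.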

How the results depend on the processing

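No replication gene passed the threshold, and none of the 40 further ones did, under any alternative fitted with a test. The smallest adjusted p was 0.0748, for Rfc5. The median of the 39 genes relative to all tested genes stayed below 0, between -0.20 and -0.04. Their direction against 0 did not hold: 17 lay below 0 as deposited, but 31 with median ratio scaling, 29 with quantile normalization, 28 with the library set as a term, 34 with both scaling and set, 35 with scaling in the larger set, 35 in the smaller set, and 11 (without control 5) to 29 (without control 3) with 1 library left out, 27 without mutant 4. Up to 20 of 39 genes had another sign under an alternative. Of 856 values of single genes, 826 moved by less than 1 within-group SD of the gene (0.10 to 0.43 on the log2 scale). A sign can change within that SD, as for Mcm7, at 0.03 as deposited and -0.09 with median ratio scaling. Genes without overlap numbered 0 as deposited, 1 with median ratio scaling and 4 in the larger set. With the factors of all 10 libraries, 13 lay without overlap in the larger set. With 1 library left out there were 0 to 1, where leaving out control 1 or control 5 gave the 1.

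Calls over all genes numbered 21, of which 12 were higher and 9 lower in mutants, and 30 with median ratio scaling, 11 higher and 19 lower. They numbered 2 with no filter, 35 with quantile normalization, 74 with the library set as a term, 89 with set and scaling, 101 in the larger set, 88 there with scaling, 11 without trend or robust moderation, and 2 to 79 with 1 library left out. The Rnu11 level was 24.7% of control in the larger set and 21.4% there with scaling (exact two-sided permutation p = 0.0571 in both, the smallest that 3 against 4 can give). The cause of these shifts was not tested. Scaling and set together and the scaled larger set were chosen after seeing the data, as was the smaller set alone.

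With the replicate number as a block (replicate block), 14 genes were called, 0 of them replication genes, and the smallest adjusted p of these was 0.108, for Rfc5. Same-numbered mutants and controls correlated at 0.077, 0.155, 0.236, -0.107 and 0.521 in their deviations, and 3 of 5 mutants correlated best with their own number. Mutant 5 and control 5, at 0.521, are both of the smaller library set. Mutant 4, also of that set, correlated best with control 5 too. Whether pairing or the library set lies behind these matches was not tested. Since 2 of the 5 correlations were not over 0.1 and no label names a shared litter or batch, the samples were treated as sharing a number only. FPKM without counts leaves the depth behind each value unknown beyond a rough estimate. Differences within the intervals given remain compatible with these data, taken 1 gene at a time.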
